A study of Mus musculus with 11 samples.

Results

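The 10 transcripts described here, Fgl2, Rnf130, Abca2, Tmem238, Paqr7, Pkd1, Sharpin, Evi2a, 2310067B10Rik and Entpd7, are a small part of the 24421 genes counted in tumor cDC1s, conventional type 1 dendritic cells. They were chosen on the measured values themselves, as genes that were lower in XBP1-deficient than in control pools, were higher again when IRE1 was also disrupted, and do not belong to the folding or transport machinery of the endoplasmic reticulum (ER). All 10 were among the 10951 genes tested, so none was lost to the filter on low counts. Because the choice used 2 of the 3 genotype contrasts, and the contrast between double-deficient and control cells is their sum, fold changes of the 10 transcripts and counts of members past a call rule are given as a description, with standard errors and intervals, and support nothing further.

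The cDC1s came from B16 melanoma tumors, grown from the mouse line B16-F10 per the study's text, and were isolated by sorting, and each pool combined 2 to 4 mice of 6 to 14 weeks on a C57BL/6 background. There were 4 control pools without Cre, replicates 1 to 3 from XBP1 fl/fl mice and replicate 4 from XBP1 fl/fl IRE1 fl/fl mice. The 4 XBP1ΔDC pools came from XBP1 fl/fl mice carrying CD11c-CRE, and the 3 XBP1ΔDCIRE1truncDC pools from XBP1 fl/fl IRE1 fl/fl mice carrying CD11c-CRE. Xbp1 loses exon 2, and the IRE1 gene Ern1 loses exons 20 and 21, which leaves a truncated IRE1 without its RNase part. All 3 groups carry floxed Xbp1. The CD11c promoter drives Cre in all CD11c-expressing cells, so other dendritic cells and some macrophages of the same mice also lose the genes.

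IRE1 is a sensor of the ER membrane with a kinase and an RNase domain. Its RNase cuts Xbp1 mRNA at 2 hairpins to start the splicing that gives the transcription factor XBP1s. The same RNase can cut other mRNAs, which are then degraded, a process called regulated IRE1-dependent decay (RIDD), and many of its known substrates encode membrane or secreted proteins that are translated at the ER. In dendritic cells, and in cDC1s in particular, loss of XBP1 is known to leave IRE1 highly active. A transcript that falls without XBP1 and returns without the IRE1 RNase therefore follows the pattern looked for in RIDD substrates, whereas a target of XBP1s would stay low. Of the 10 transcripts, Rnf130, Abca2, Tmem238 and Paqr7 are on the list of RIDD targets that the study took from the literature, and the other 6 are not. Sharpin is a cytosolic protein, and the proteins of the other 9 genes are secreted or span a membrane.

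The IRE1 RNase is known to cut inside a loop of 7 bases with the letters CNGCAGN closed by a short stem. The letters were searched in the coding-strand sequence of 1 transcript for each gene, the protein-coding transcript with the longest coding sequence in GENCODE vM21 on the GRCm38 build. The search was first tried on Xbp1, where it found both known sites, and then on the 10 transcripts. The windows below show, from 5′ to 3′, the loop in capitals with 6 bases on each side, first for Xbp1 as a reference, then for the transcripts with the longest stems around a loop and for Notch4, a recovering gene outside the 10.
Xbp1, first site: ctgagtCCGCAGCactcag
Xbp1, second site: gcacctCTGCAGCaggtgc
Pkd1, first window: tgaggcCTGCAGTgccttc
Pkd1, second window: acagggCAGCAGGccctag
Fgl2: cagaaaCAGCAGCtttgag
Sharpin: cacgagCTGCAGCctcccc
Entpd7: agcccaCGGCAGCtggctc
Notch4: tgtcacCCGCAGTgtgact
The Xbp1 sites, at chr11:5524270-5524288 and chr11:5524296-5524314 in exon 4, have stems of 6 and 7 base pairs. Both Pkd1 windows are coding, at chr17:24565102-24565120 in exon 5 and chr17:24587206-24587224 in exon 31, and their stems have 4 base pairs. The windows of Fgl2 (chr5:21375339-21375357), Sharpin (chr15:76350154-76350172) and Entpd7 (chr19:43729731-43729749) are coding too and have stems of 3 base pairs. The Notch4 window (chr17:34582852-34582870, exon 21) has 5.

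No transcript of the 10 held a loop closed by 5 or more Watson-Crick pairs. The same was true of most genes, since 101 of the 10662 tested genes with a transcript model held one (0.947%), as did 2 of the 74 tested RIDD-list genes outside the 10. With stems of 4 base pairs, a limit chosen after seeing the data, Pkd1 was the single member to hold a hairpin, against 3.48% of tested genes. At this limit 9 of the 74 RIDD-list genes outside the 10 held one, as did 3 of 6 other recovering genes (Slc1a5, Notch4 and Bloc1s1). Pkd1 held 61 loops of any stem, so its long transcript gave it many places for a match. The core letters CTGCAG were present in 9 of 10 members and in 85.5% of tested genes, so their presence does not set the members apart. Pkd1, with a transcript of 14164 bases, held 31 copies, and Abca2, with 8033 bases, held 13. Rnf130 held 0 copies of CTGCAG and 0 loops in 1502 bases. The search covers these letters and perfect stems only, and says nothing of whether IRE1 cuts the transcript.

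In promoters of 250 bases before to 50 after the start (RefSeq, GRCm38.p6), 8 of the 10 genes had a sequence. The XBP1s core CCACG stood on either strand in those of Fgl2, Rnf130, Paqr7 and Entpd7, and in 32.8% of all 32851 promoters. The letters TGACGTG (2.01% of promoters) and the ER stress element (0.119%) were in none of the 8.

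Libraries held 21089065 to 26843486 counts and did not separate the groups. All 12 cDC1 markers, Xcr1, Clec9a and Batf3 among them, were expressed, and 0 of the 12 were called in any comparison by edgeR's quasi-likelihood test or by DESeq2 (2, 2 and 3 had an unadjusted p under 0.05 in edgeR). Their summed level was 14747 to 16512 CPM (counts scaled to the library size, normalized by TMM) in control, 13112 to 14281 in XBP1ΔDC and 14106 to 14620 in XBP1ΔDCIRE1truncDC pools, while the 8 T and NK cell markers in the table summed to at most 10.4 CPM. Of the 12 cDC1 markers, Naaa had the lowest log2 fold change in XBP1ΔDC against control, -0.51 (unadjusted p = 5.6e-07 in edgeR). That change was under the fold limit for a call. All XBP1ΔDC pools of Naaa (2705 to 3052 CPM) lay below all control pools (3926 to 4356 CPM). XBP1ΔDCIRE1truncDC pools had 3220 to 3415 CPM, a rise of 0.18 over XBP1ΔDC (unadjusted p = 0.0093 in edgeR). Naaa thus moved in the same directions as the 10 transcripts. Xbp1 was at 244 to 271 CPM in control, 130 to 165 in XBP1ΔDC and 179 to 236 in XBP1ΔDCIRE1truncDC pools. Ern1 was at 9.82 to 18.99, 9.74 to 15.6 and 17.00 to 25.99 CPM. Counts per gene include transcripts without the floxed exons. In pools of sorted cells, fewer cells that express a transcript and less of it per cell cannot be told apart.

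All 10 transcripts were lower in every XBP1ΔDC pool than in every control pool, by 1.29-fold (Sharpin) to 2.49-fold (Abca2) between group means. The median log2 fold change was -0.92. All XBP1ΔDCIRE1truncDC pools were above all XBP1ΔDC pools for 9 of the 10, the exception being Entpd7, and the median log2 fold change between these groups was 0.77. Since the rule asked for both moves, these counts follow from it. Over all genes tested, 3.67% had all XBP1ΔDC pools below all control pools, 3.11% had all XBP1ΔDCIRE1truncDC pools above all XBP1ΔDC pools, and 0.813% (89 genes) had both orders, 9 of them members. By the call rule in edgeR, which asks for a fold change over 1.5 at an adjusted p below 0.05, 9 members were lower in XBP1ΔDC (0.466% of all genes were), with Sharpin outside it. By the same rule Fgl2 and Rnf130 were higher in XBP1ΔDCIRE1truncDC than in XBP1ΔDC cDC1s (0.0731% of all genes were). The first count was 6 to 9 when 1 pool was left out. The second was 0 without any 1 of control replicates 1, 2 and 4 or XBP1ΔDC replicates 1, 3 and 4, and 7 with DESeq2. These contrasts share the XBP1ΔDC pools, so a pool that was low by chance deepens the loss and enlarges the return together.

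**Figure D1:**
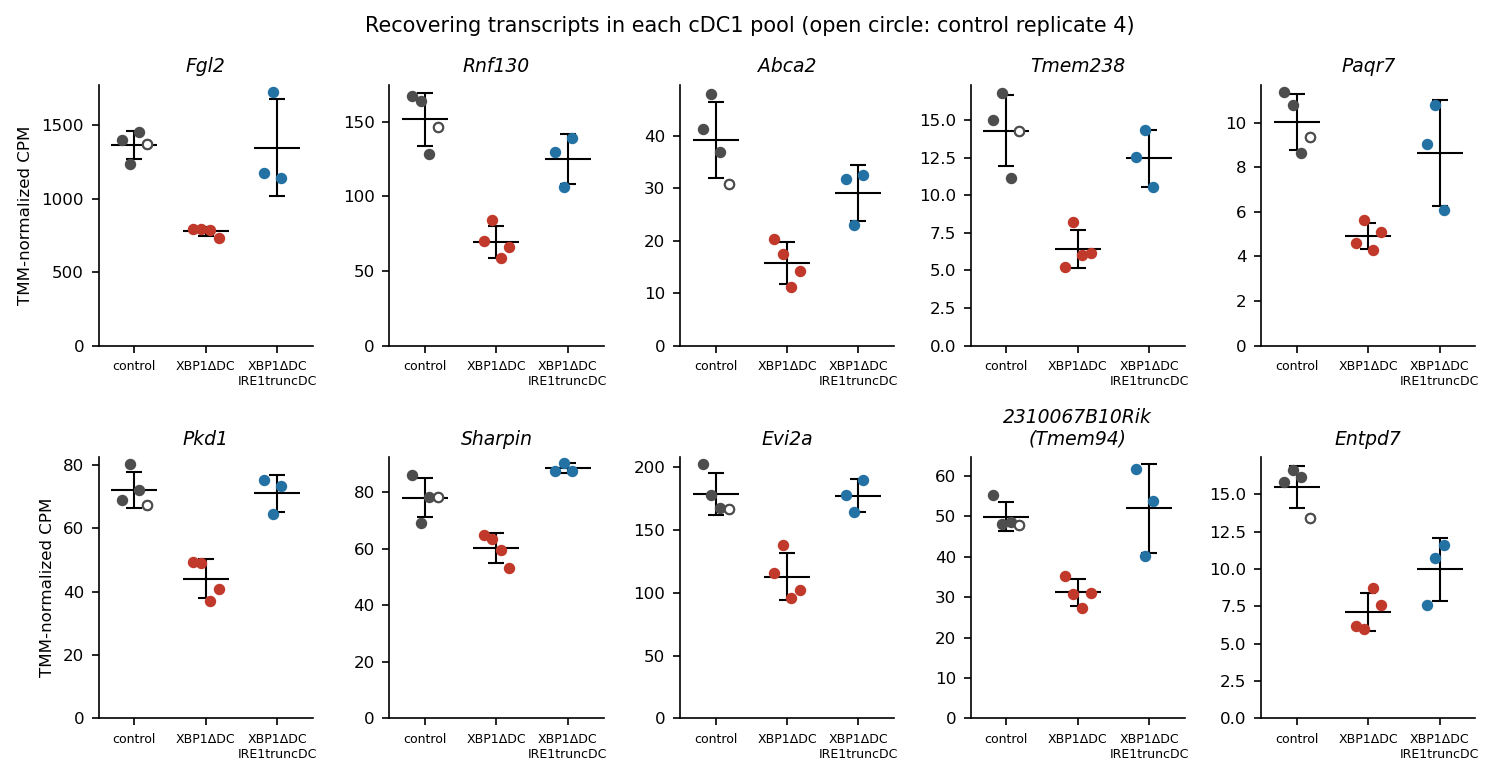
Each panel shows 1 transcript, with TMM-normalized CPM on the y axis from 0 and the 3 genotype groups on the x axis. Points are pools (the open circle is control replicate 4, with floxed Ern1), and bars give the group mean ± SD. In all 10 panels every XBP1ΔDC pool lies below every control pool, and in all but Entpd7 every XBP1ΔDCIRE1truncDC pool lies above every XBP1ΔDC pool.

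The XBP1ΔDCIRE1truncDC means stood at different distances from the control means. The share of the loss regained is the difference of the XBP1ΔDCIRE1truncDC and XBP1ΔDC means over the difference of the control and XBP1ΔDC means. It was 33.96% for Entpd7, 56.8% for Abca2, 67.7% for Rnf130, 72.9% for Paqr7 and 76.8% for Tmem238. It was 95.9% for Pkd1, 96.8% for Fgl2, 98.2% for Evi2a, 111% for 2310067B10Rik and 159.6% for Sharpin. The share of Fgl2 was 64.4% without XBP1ΔDCIRE1truncDC replicate 2, its highest pool, and no other omitted pool moved a share of the 10 by over 1.5 times. Below that limit single pools still mattered. With 1 pool left out, the share ran from 51.7% to 97.8% for Paqr7, from 24.2% to 48.2% for Entpd7 and from 136.8% to 188.1% for Sharpin. Whether the shares differ between transcripts was not tested. The 4 members of the RIDD list had log2 fold changes of -1.32 to -1.03 in XBP1ΔDC against control and regained 56.8% to 76.8%. The 6 others had -1.12 to -0.37 and regained 33.96% to 159.6%, so the ranges of both sets overlapped. With all pools kept, the overlap came from Entpd7, and without it the others had -0.81 to -0.37 and regained 95.9% to 159.6%. With XBP1ΔDCIRE1truncDC replicate 2 left out, the share of Fgl2 lay in the range of the list members, while its loss of -0.81 did not. With replicate 3 of that group left out, the list members Paqr7 (97.8%) and Tmem238 (89.1%) overlapped Evi2a (88.6%) and Pkd1 (91.8%) in share. The split in shares thus depended on single pools, and Entpd7 was set aside after the values were seen. Whether the sets differ was not tested. Against control cDC1s, the log2 fold changes in XBP1ΔDCIRE1truncDC ran from -0.64 to 0.18 with a median of -0.11, and 0 of the 10 were called by edgeR (0.21% of all genes were) or by DESeq2. A missing call does not show a return to the control level, and the intervals given for each transcript below state how large a remaining difference could be.

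**Figure D2:**
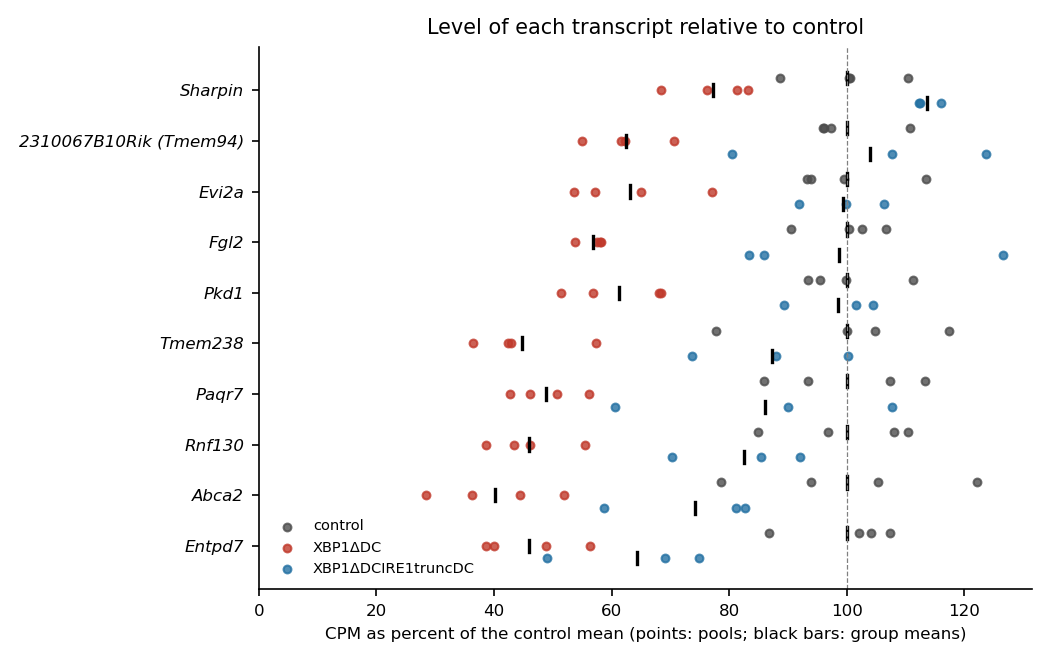
CPM of each pool as percent of the control mean of that transcript (x axis, from 0), with transcripts ordered by their XBP1ΔDCIRE1truncDC mean. Points are pools colored by group and black bars are group means. XBP1ΔDCIRE1truncDC means lie between 64.3% (Entpd7) and 114% (Sharpin) of control, XBP1ΔDC means between 40.2% (Abca2) and 77.3% (Sharpin).

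Fgl2 encodes a fibrinogen-like protein that is secreted or held at the cell surface, cleaves prothrombin and has immunoregulatory functions. It lies at chr5:21372642-21378374 on the plus strand. At 360 CPM per kb of transcript in control pools it was the most abundant of the 10 per length. Control replicates 1 to 4 had 1399, 1234, 1456 and 1369 CPM. The 4 XBP1ΔDC replicates in the same order had 794, 792, 786 and 734 CPM, and XBP1ΔDCIRE1truncDC replicates 1 to 3 had 1173, 1727 and 1138 CPM. The XBP1ΔDC pools were close to each other and far below the rest. The XBP1ΔDCIRE1truncDC pools straddled the controls, with replicate 2 above all 4 and the other pools below all 4. The log2 fold changes were -0.81 (standard error 0.115) for XBP1ΔDC against control and 0.79 (standard error 0.122) for XBP1ΔDCIRE1truncDC against XBP1ΔDC. Against control, the double-deficient value was -0.02 with a 95% interval of -0.29 to 0.25, and -0.24 without XBP1ΔDCIRE1truncDC replicate 2.

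Evi2a encodes a single-pass membrane protein of leukocytes. The gene, at chr11:79526560-79530609 on the minus strand, lies within the neurofibromin gene Nf1, which runs on the opposite strand. Levels of 202, 178, 168 and 166 CPM were found in control replicates 1 to 4. XBP1ΔDC replicates 1 to 4 had 116, 138, 95.7 and 102 CPM, and XBP1ΔDCIRE1truncDC replicates 1 to 3 had 178, 164 and 189.9 CPM. The double-deficient pools overlapped the controls, and all XBP1ΔDC pools lay below both. Evi2a had log2 fold changes of -0.66 (standard error 0.112) and then 0.65 (standard error 0.120), which left -0.01 against control (95% interval -0.27 to 0.25). A further gene of the same strand, Evi2, shares 442 exon bases with Evi2a in the annotation and is not in the count table, and the neighbor Evi2b had 1 to 6 counts per pool.

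Pkd1 encodes polycystin-1, a very large membrane receptor of primary cilia and other membranes, whose loss causes polycystic kidney disease. The gene is at chr17:24549834-24596508 on the plus strand, and the annotated transcript has 46 exons. Control replicates 1 to 4 had 68.8, 80.3, 72.1 and 67.4 CPM. The level was 49.4, 49.1, 37.1 and 41.0 CPM in XBP1ΔDC replicates 1 to 4 and 75.3, 64.4 and 73.3 CPM in XBP1ΔDCIRE1truncDC replicates 1 to 3. Double-deficient and control pools overlapped. On the log2 scale the changes were -0.71 (standard error 0.108) and 0.69 (standard error 0.116), and -0.02 against control (95% interval -0.27 to 0.23). The last exons of Pkd1 share 693 bases with Tsc2, which runs on the opposite strand. Tsc2 had log2 fold changes of 0.05 and -0.14 in the same contrasts.

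Paqr7 encodes membrane progestin receptor alpha, a receptor of the PAQR family, and lies at chr4:134496697-134510235 on the plus strand. It was among the lowest transcripts of the 10 (102 to 131 counts in XBP1ΔDC pools). Levels of 11.4, 10.8, 8.62 and 9.37 CPM were found in control replicates 1 to 4. The level in XBP1ΔDC replicates 1 to 4 was 4.62, 5.62, 4.29 and 5.08 CPM. XBP1ΔDCIRE1truncDC replicates 1 to 3 had 9.03, 10.8 and 6.08 CPM. Double-deficient replicates 1 and 2 lay within the control range, and replicate 3 lay just above the highest XBP1ΔDC pool. The log2 fold changes were -1.03 (standard error 0.206) and 0.82 (standard error 0.219), and -0.22 against control (95% interval -0.69 to 0.26).

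Abca2 encodes an ATP-binding cassette transporter of endolysosomal membranes with roles in sterol and sphingolipid handling. It is at chr2:25428703-25448540 on the plus strand and had the deepest loss of the 10. Control replicates 1 to 4 had 41.4, 48.0, 36.9 and 30.9 CPM. XBP1ΔDC replicates 1 to 4 had 20.4, 17.4, 11.1 and 14.2 CPM, and XBP1ΔDCIRE1truncDC replicates 1 to 3 had 31.9, 23.1 and 32.5 CPM. The double-deficient pools lay between the other groups and reached only the lowest control, replicate 4. On the log2 scale the changes were -1.32 (standard error 0.196) and 0.89 (standard error 0.208), and -0.43 against control (95% interval -0.88 to 0.02).

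Entpd7 encodes a nucleoside triphosphate diphosphohydrolase of intracellular membranes, at chr19:43689672-43733697 on the plus strand. Levels of 15.8, 16.6, 16.1 and 13.4 CPM were found in control replicates 1 to 4. XBP1ΔDC replicates 1 to 4 had 6.20, 5.99, 8.73 and 7.57 CPM, and XBP1ΔDCIRE1truncDC replicates 1 to 3 had 7.58, 10.7 and 11.6 CPM. It was the only 1 of the 10 whose double-deficient pools all stayed below all controls, an order not counted over all genes tested. Double-deficient replicate 1 lay within the XBP1ΔDC range. The log2 fold changes were -1.12 (standard error 0.181) and 0.48 (standard error 0.194). Against control the value was -0.64 (95% interval -1.06 to -0.21). Exons of Entpd7 share 444 bases with Cox15 on the opposite strand, and Cox15 had log2 fold changes of 0.04 and -0.07 in the same contrasts.

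2310067B10Rik, named Tmem94 in the current annotation, encodes a multi-pass membrane protein related to P-type ATPases. It lies at chr11:115765433-115799366 on the plus strand. Control replicates 1 to 4 had 55.3, 48.1, 48.6 and 48.0 CPM. XBP1ΔDC replicates 1 to 4 had 35.3, 30.8, 27.4 and 31.1 CPM, and XBP1ΔDCIRE1truncDC replicates 1 to 3 had 61.8, 40.2 and 53.8 CPM. Double-deficient replicate 1 was above all controls and replicate 2 below all of them. The log2 fold changes were -0.68 (standard error 0.130) and 0.74 (standard error 0.138), and 0.06 against control (95% interval -0.24 to 0.36). The gene shares 184 exon bases with Caskin2 on the opposite strand, which had log2 fold changes of -0.20 and 0.23 with standard errors of 0.204 and 0.220.

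Tmem238 encodes a small transmembrane protein and lies at chr7:4784557-4789656 on the minus strand. The level was 14.96, 16.8, 11.1 and 14.3 CPM in control replicates 1 to 4, 5.21, 8.19, 6.05 and 6.13 CPM in XBP1ΔDC replicates 1 to 4, and 12.5, 14.3 and 10.5 CPM in XBP1ΔDCIRE1truncDC replicates 1 to 3. Double-deficient and control pools overlapped. Its rise between XBP1ΔDC and XBP1ΔDCIRE1truncDC was the largest of the 10, a log2 fold change of 0.96 (standard error 0.200) after a loss of -1.16 (standard error 0.188), and the value against control was -0.20 (95% interval -0.63 to 0.23).

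Rnf130 and Sharpin both act in protein ubiquitination. Rnf130, at chr11:50025346-50104758 on the plus strand, encodes a membrane-bound RING ubiquitin ligase related to Drosophila Goliath. Control replicates 1 to 4 had 167, 164, 129 and 147 CPM. XBP1ΔDC replicates 1 to 4 had 69.9, 84.2, 58.6 and 65.8 CPM, and XBP1ΔDCIRE1truncDC replicates 1 to 3 had 129.5, 107 and 139 CPM. Double-deficient replicate 2 lay below all controls, and the other pools lay above the lowest control. Rnf130 had log2 fold changes of -1.12 (standard error 0.126) and 0.85 (standard error 0.134), and -0.28 against control (95% interval -0.57 to 0.02).

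Sharpin encodes a subunit of LUBAC, the complex that builds linear ubiquitin chains in NF-kappaB signaling, and lies at chr15:76347040-76351111 on the minus strand. Control replicates 1 to 4 had 86.1, 69.2, 78.4 and 78.5 CPM. XBP1ΔDC replicates 1 to 4 had 64.9, 63.5, 59.4 and 53.3 CPM, and XBP1ΔDCIRE1truncDC replicates 1 to 3 had 87.6, 90.6 and 87.7 CPM. It was the only 1 of the 10 whose double-deficient pools all exceeded all controls, an order not counted over all genes tested. Its loss was the smallest, with a log2 fold change of -0.37 (standard error 0.0876), under the fold limit of the call rule. It was followed by a rise of 0.56 (standard error 0.0938), and stood at 0.18 against control (95% interval -0.02 to 0.39). Sharpin with the smallest loss and Entpd7 with the smallest rise were thus the transcripts nearest to the edge of the rule, which named no numeric limit.

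For independent reads, counting error was a minor part of the spread for the abundant transcripts and a larger part for the rare ones. In XBP1ΔDC pools, where counts were lowest, the coefficient of variation of Paqr7 was 11.8% and counting alone gives 9.25%. For Entpd7 it was 17.9% against 7.61%. For Rnf130 it was 15.5% against 2.46%, and for Fgl2 3.71% against 0.734%. Error from pre-amplification of the libraries is not part of these counting figures, and each spread rests on 4 pools.

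Control replicate 4 differs from the other controls by its floxed Ern1 alleles, which the XBP1ΔDCIRE1truncDC mice also carry. It was below control replicates 1 to 3 for 5 of the 10 transcripts (Abca2, Pkd1, Evi2a, 2310067B10Rik and Entpd7), and for 24.6% of all genes tested. Compared with control replicate 4 alone, the XBP1ΔDCIRE1truncDC mean was 94.4% for Abca2 and 74.2% for Entpd7. Compared with the mean of control replicates 1 to 3, these shares were 69.2% and 61.6%. With 1 such pool, the share of the floxed allele and of the pool itself cannot be told apart. Rnf130, Evi2a and 2310067B10Rik lie on chromosome 11, which also holds Xbp1 and Ern1, while 8.66% of tested genes with a transcript model do. Control and XBP1ΔDC pools share floxed Xbp1, and control replicates 1 to 3 differ from XBP1ΔDC pools by Cre alone. The XBP1ΔDCIRE1truncDC pools also carry floxed Ern1, which among the other pools only control replicate 4 has, without Cre. That pool was within control replicates 1 to 3 for Rnf130 (147 CPM) and below them for Evi2a (166 CPM) and 2310067B10Rik (48.0 CPM). With 1 such pool, the floxed Ern1 region and the lost IRE1 RNase cannot be told apart in the return of these 3 genes.

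Relatives, complex partners and genomic neighbors of the members were listed from knowledge of the families. Of 56 such genes, 34 passed the filter, and 0 were called by edgeR in any of the 3 comparisons, a count that the low share of calls over all genes also gives. By an unadjusted p under 0.05, 3 (Abca3, Abca7 and Paqr8) were lower in XBP1ΔDC than in control, where 7.62% of all genes passed in either direction. In XBP1ΔDCIRE1truncDC against XBP1ΔDC, Abca7, Paqr8 and Tnip1 were higher and Nf1 was lower, where 5.29% of all genes passed. In XBP1ΔDCIRE1truncDC against control, 3 of the 34 passed (Tnip1, Mmd and Nf1), beside 11.2% of all genes. DESeq2 called 0, 0 and 1 of the 34, the last being Tnip1 in XBP1ΔDCIRE1truncDC against control. The LUBAC partners of Sharpin, Rnf31 and Rbck1, had log2 fold changes of 0.13 (95% interval -0.06 to 0.33) and -0.09 (95% interval -0.28 to 0.10) in XBP1ΔDC against control. In XBP1ΔDCIRE1truncDC against XBP1ΔDC the values were 0.05 and 0.12. Tnip1, which binds linear ubiquitin chains, was at 0.26 and 0.35 in the same contrasts. Rnf13, a membrane-bound ligase related to Rnf130 (56.3 CPM in control), was at -0.19 and -0.04.

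Of the 5 listed transporters related to Abca2, 2 were tested. Abca3, itself on the RIDD list, had log2 fold changes of -0.36 (standard error 0.106) and 0.20 (standard error 0.114), and Abca7 of -0.20 (standard error 0.0888) and 0.31 (standard error 0.0954), with none called. Paqr8, which encodes membrane progestin receptor beta, had values of -0.78 (standard error 0.254) and 0.80 (standard error 0.271) at a level of 6.54 CPM in control, near those of Paqr7, and was not called either. The progesterone-binding protein Pgrmc1 was at 0.09 and -0.14. Paqr5 was at -0.83 and 0.23, with standard errors of 0.422 and 0.457, at 2.26 CPM in control. Of the 9 tested genes listed for Paqr7, 6 were lower in XBP1ΔDC than in control and 3 were higher. Among relatives of Pkd1, Pkd2 was at -0.77 and 0.12, with standard errors of 0.563 and 0.612. Pkd2l2 was at 0.64 and -0.25, with standard errors of 0.427 and 0.459. Entpd1, which encodes the surface ectonucleotidase CD39, was at 0.36 and 0.28, with standard errors of 0.335 and 0.359. Nf1, the gene around Evi2a, was at 0.02 in XBP1ΔDC against control, and at -0.40 in XBP1ΔDCIRE1truncDC against XBP1ΔDC (adjusted p = 0.904 from edgeR). Whether members and relatives differ was not tested, since the members were chosen on these contrasts.

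**Figure D3:**
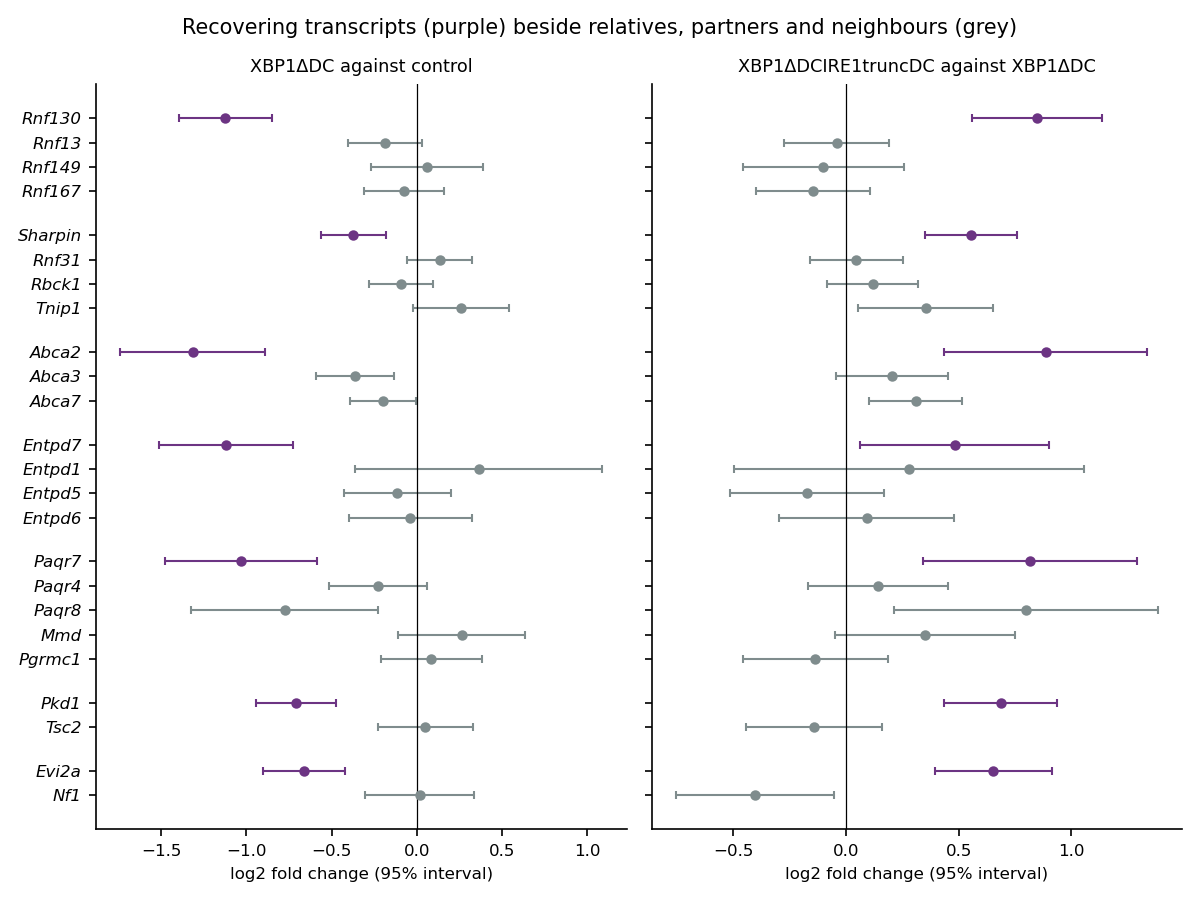
Log2 fold changes with 95% intervals (x axis) of 7 recovering transcripts (purple) and of 17 relatives, partners or neighbors (grey, a selection of the 34 tested), in XBP1ΔDC against control (left) and XBP1ΔDCIRE1truncDC against XBP1ΔDC (right). The intervals of Rnf31 and Rbck1 span 0 on both sides, while those of Paqr8 exclude 0 on both sides. Relatives not drawn include Paqr5 and Pkd2.

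The other genes of the RIDD list, 74 of 75 tested, gave the frame for the 4 list members among the 10. Of the 74, 7 were called lower in XBP1ΔDC than in control and 0 higher, with a median log2 fold change of -0.28. In XBP1ΔDCIRE1truncDC against XBP1ΔDC, 1 was called higher (0 in 10 of the 11 fits that left out 1 pool) and 0 lower, with a median of 0.20, and against control 0 were called, with a median of -0.08. By p in XBP1ΔDC against control, Erp44 (-0.76), Gm2a (-0.71), Rpn1 (-0.80), Mlec (-0.64) and Bloc1s1 (-0.87) led this list. Of the 5, Bloc1s1, a subunit of lysosome-trafficking complexes and a long-known RIDD substrate, came back by 0.98, whereas Erp44, Gm2a, Rpn1 and Mlec came back by 0.33 to 0.39. The 60 XBP1s targets had medians of -0.36 in XBP1ΔDC against control, 0.06 in XBP1ΔDCIRE1truncDC against XBP1ΔDC and -0.31 in XBP1ΔDCIRE1truncDC against control. The lists share genes, Mlec among them. Outside the 10 members, 66 RIDD-list genes are not on the list of XBP1s targets. The 65 of them that were tested had medians of -0.28, 0.24 and -0.07 in the same order of comparisons. The medians of all genes tested lay near 0 in each comparison.

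Across the whole table, 109 genes (0.995%) were lower in XBP1ΔDC than in control and higher again in XBP1ΔDCIRE1truncDC with an unadjusted p under 0.05 in each contrast. They held all 10 members, 20 other genes of the RIDD list and 4 of the 60 XBP1s targets, with Mlec counted on both lists. The 6 other recovering genes picked out in these data, the integrin beta subunit Itgb2, the B cell-related Fc receptor-like gene Fcrla, the glutamine transporter Slc1a5, the Notch receptor Notch4, the ER-phagy receptor Fam134c and Bloc1s1, were called in both contrasts. Their losses, from -1.97 (Fcrla) to -0.86 (Slc1a5), overlapped those of the members, and their rises, from 0.95 (Slc1a5) to 2.40 (Fcrla), stood beside a highest rise of 0.96 (Tmem238) among the members.

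**Figure D4:**
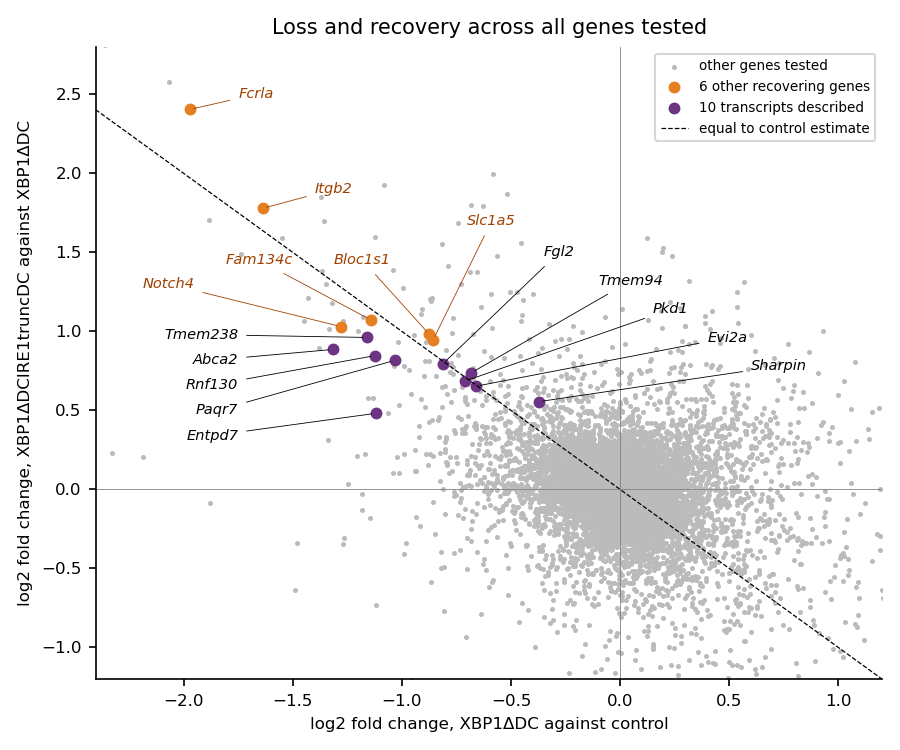
Log2 fold change in XBP1ΔDC against control (x axis) and in XBP1ΔDCIRE1truncDC against XBP1ΔDC (y axis) for 10833 of the 10951 genes tested (118 lie outside the axes). On the dashed line the XBP1ΔDCIRE1truncDC and control estimates are equal. Tmem94 (2310067B10Rik), Pkd1, Evi2a and Fgl2 lie on or near the line, Sharpin above it, and Entpd7 farthest below it, and the plotted axes share the XBP1ΔDC pools.

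The genes whose pattern over the 11 pools was most like the mean z-score of the 10 transcripts were Slc1a5 (Pearson r 0.97), Itgb2 (0.96), Notch4 (0.96), Fam134c (0.96), Cnpy3 (0.96), Bloc1s1 (0.95), Ncln (0.95), Cyb561d2 (0.94), Pomgnt1 (0.94) and Dpy19l1 (0.94). These r values are over 11 pools that share the 3 genotypes, so any gene with the chosen pattern scores high. Of the 10 genes, Cyb561d2 and Bloc1s1 are on the RIDD list and Cnpy3 on the list of XBP1s targets.

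Deviations of each pool from its own group mean did not enter the rule, and over them the 10 transcripts did not vary as a single block. The median Pearson r of the 45 pairs over 11 pools was 0.0933, and 27 pairs were positive. The highest values were those of Abca2 with Pkd1 (r 0.92, Spearman's rho 0.95), Rnf130 with Evi2a (r 0.89, rho 0.89) and Tmem238 with Paqr7 (r 0.78, rho 0.86). All 10 pairs with r above 0.5 except Tmem238 with Paqr7 lay among Rnf130, Evi2a, Abca2, Pkd1 and 2310067B10Rik. Fgl2 with 2310067B10Rik had the lowest value (r -0.66, rho -0.32), and Entpd7 was negative with 8 of the 9 other members. Points share library and depth, and members against all other genes had a median r of 0.0001. XBP1ΔDC replicate 2 was above its group mean for 8 of the 10 transcripts and XBP1ΔDC replicate 3 for 2.

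**Figure D5:**
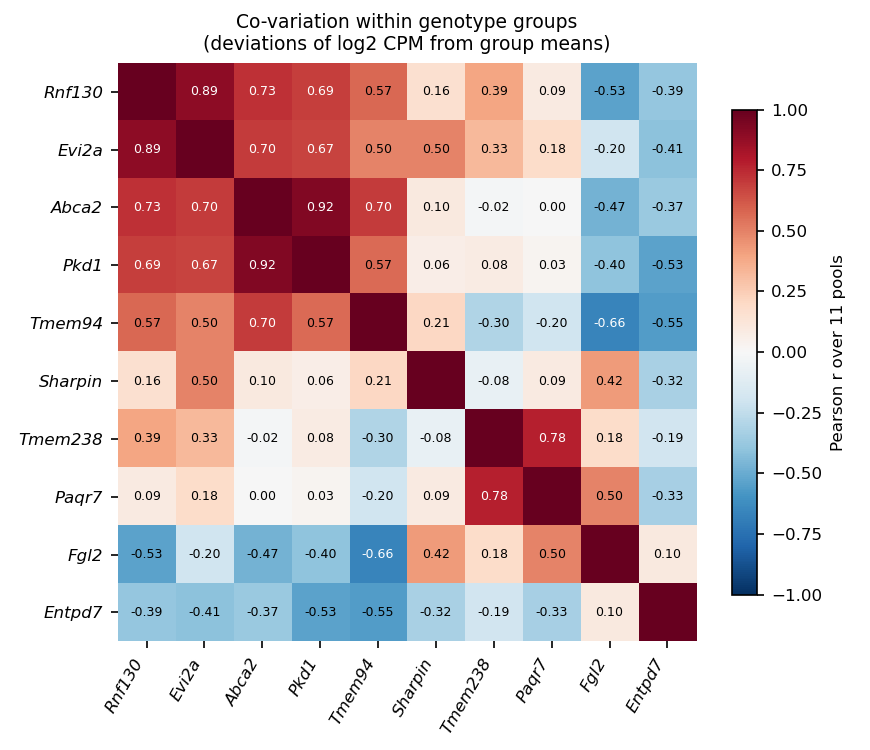
Pearson r between pairs of transcripts over 11 pools, after the group mean of log2 CPM was subtracted within each genotype (red positive, blue negative). Genes are ordered by hand to place similar ones side by side, and Rnf130, Evi2a, Abca2, Pkd1 and Tmem94 (2310067B10Rik) form the red area at the upper left, with Fgl2 and Entpd7 mostly blue against them.

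Markers of mature dendritic cells were examined beside these transcripts. All 7 tested markers of the 8 listed, Ccr7 and Fscn1 among them, had log2 fold changes above 0 in XBP1ΔDCIRE1truncDC against control cDC1s, 6 with an unadjusted p under 0.05 and 0 called by edgeR or DESeq2, with a median log2 fold change of 0.73. The 7 markers were also all above 0 in XBP1ΔDC against control (median 0.47) and in XBP1ΔDCIRE1truncDC against XBP1ΔDC (median 0.29). In these contrasts 1 and 0 had an unadjusted p under 0.05 in edgeR, and 0 were called. Their summed level was 4191 to 6947 CPM in control, 4567 to 8533 in XBP1ΔDC and 6421 to 11886 in XBP1ΔDCIRE1truncDC pools, ranges that overlap, with no marker at 0. XBP1ΔDCIRE1truncDC replicate 3, the highest pool, had the lowest Fgl2, Tmem238 and Paqr7 and the highest Rnf130, Abca2, Evi2a and Entpd7 of its group. Macrophage and monocyte markers summed to 706 to 1031, 669 to 958 and 500 to 1209 CPM, and melanoma markers to 8.96 to 60.9, 12.2 to 64.7 and 8.74 to 11.02 CPM in the 3 groups. Lyz2 made up most of the macrophage and monocyte sum, at 633 to 989, 589 to 900 and 405 to 1132 CPM. Of these 11 markers, 10 were higher in XBP1ΔDC than in control and 1 was lower, with a median log2 fold change of 0.62. By edgeR, 1 of them had an unadjusted p under 0.05 and 0 were called. The part of these cells in the values of the 10 transcripts was not tested.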

How the data were processed

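Sorted tumor cDC1s were processed with SMART-seq v4 into single-end libraries. The authors trimmed reads with Trimmomatic 0.39, checked them with FastQC, aligned them with STAR 2.7.3a to mm10 per the submitters' processing notes, and counted them per gene with HTSeqCount. The deposited count table holds these raw counts. The annotation behind it and its use of strand are not given in the sources used here. The other deposited table gives log2 values, normalized by the authors in limma. They differ by at most 0.00069 from the log2 CPM that voom gave from the counts, and served as an alternative.

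Pools were grouped by the genotype in the labels. Replicates are independent pools. Genes with over 1 CPM in 4 or more pools were fitted with edgeR 4.0.16 in R 4.3.3 (TMM scaling, quasi-likelihood test, 3 groups in 1 fit). P-values were adjusted by Benjamini-Hochberg over all 10951 genes tested, and a gene was called at a fold change over 1.5 with an adjusted p below 0.05. The standard error is the log2 fold change over the square root of F. Deviations within groups used log2 CPM with a prior count of 2. The test was tried on simulated data first. Alternatives used DESeq2 1.42.0 and limma 3.58.1, other scalings and filters, a replicate block and the omission of each pool.

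The members and lists were chosen with earlier results of these data known. Named genes are the 10 members, genes of the fixed family, RIDD and recovering lists (of the RIDD list the 5 smallest p), the 10 genes most like the members' mean, and genes that overlap a member. Transcript models matched 10662 of the 10951 genes, 334 of them by a synonym. Sequence was searched with python 3.11.15. Depth was similar in all pools. Counts per gene cannot show where a transcript is cut, and without strand, reads of overlapping opposite genes cannot be told apart.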

Additional observations from a re-analysis of the deposited data

Results flagged for a closer look

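Among 20 sets of 4 pools (10 transcripts in control and in XBP1ΔDC pools), 2 held a pool far from the others, with a gap to its neighbor that exceeds Dixon's 95% limit as a share of the whole range. Chance flags about 1 in 20 such sets. The lowest XBP1ΔDC pool of Fgl2, replicate 4, was at 734 CPM beside 786 to 794 CPM, a gap of 0.854 of the range. The highest control pool of 2310067B10Rik, replicate 1, was at 55.3 CPM beside 48.0 to 48.6 CPM, a gap of 0.916 of the range. Without XBP1ΔDC replicate 4, the log2 fold change of Fgl2 in XBP1ΔDC against control was -0.79 in place of -0.81. Without control replicate 1, that of 2310067B10Rik was -0.63 in place of -0.68, and it lost its call in edgeR.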

How the results depend on the processing

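The 10 transcripts kept the direction of their loss and of their return under every alternative run (DESeq2, limma voom, other scalings and filters, 2 groups only, a replicate block, the deposited log2 values and the omission of each pool). Of 600 recomputed fold changes, 598 moved by less than the spread between pools. The other 2 were those of Fgl2 without XBP1ΔDCIRE1truncDC replicate 2, 0.57 against XBP1ΔDC and -0.24 against control. The pool orders held for 10 and 9 transcripts under both other scalings, and the second was 10 without XBP1ΔDC replicate 3. Calls were less firm. In XBP1ΔDC against control, 2310067B10Rik lost its call in 7 and Paqr7 in 9 of the 11 fits that left out a pool.

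In XBP1ΔDCIRE1truncDC against XBP1ΔDC, the members called went from 2 to 7 with DESeq2, 1 with scaling by library size, 0 with only the 2 groups and 0 to 2 without 1 pool. All genes called went from 8 to 36 with DESeq2 and 4 to 10 without 1 pool. RIDD-list genes called outside the members went from 1 to 5 with DESeq2, 2 with library size, 2 with no filter, 0 with 2 groups and 0 to 1 without 1 pool. In XBP1ΔDC against control, 98 genes in place of 54 were called with no fold change limit. In XBP1ΔDCIRE1truncDC against control, 23 genes called became 95 with DESeq2, 15 with 2 groups, 39 with no fold change limit and 12 to 23 without 1 pool, and DESeq2 called 1 RIDD-list and 1 family gene in place of 0. Without 1 pool, the sign changed for Tsc2 (-0.0603 to 0.123) and Nf1 (-0.11 to 0.10) in XBP1ΔDC against control, and for Rnf13 (-0.127 to 0.0260) and Entpd1 (-0.18 to 0.58) in XBP1ΔDCIRE1truncDC against XBP1ΔDC. The cause of these moves was not tested. No scaling moved the median of all genes by over 0.1.

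The deviations of pools with the same number correlated at -0.0259 on average (10 pairs) and those of other pools at 0.0087, so the numbers were not taken to pair pools. With the replicate number as a block, 0 members in place of 2, 3 genes in place of 8 and 0 RIDD-list genes were called in XBP1ΔDCIRE1truncDC against XBP1ΔDC, 4 RIDD-list genes in XBP1ΔDC against control, and 11 genes in XBP1ΔDCIRE1truncDC against control. Under the block, and with library size alone, Paqr7 was the single member to lose its call in XBP1ΔDC against control.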
